A study of Mus musculus with 8 samples.

Results

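The 10 genes described here are markers of Kupffer cells, the resident macrophages of the liver: Clec4f, Timd4, Vsig4, Cd5l, Marco, C1qa, C1qb, C1qc, Cd163 and Adgre1. They were chosen by symbol, were all found once among the 53816 gene IDs listed for each library, and all entered the test, which covered the 13055 genes averaging 1 TPM or more (TPM is a relative transcript level corrected for transcript length and library size). RNA came from livers of mice with the genotype labelled LSEC Myc overexpression (4 libraries, replicates 1 to 4) and of mice labelled WT (4 libraries, replicates 1 to 4). LSEC is not spelled out, and the source names call the first group endothelial Myc overexpression. All 8 libraries came from mice that had undergone bile duct ligation, which blocks bile flow and injures the liver, so no liver without ligation enters these comparisons. Neither the driver of the Myc overexpression nor the age or sex of the mice is stated in the labels. Nothing states that animals were pooled.

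Kupffer cells sit inside the sinusoids, where they take up bacteria, complement-coated particles, dying cells and haemoglobin from portal blood. Their identity in mouse depends on signals from neighbouring sinusoidal endothelial and stellate cells, and injury can replace long-lived cells by macrophages derived from blood monocytes, which gain resident markers only gradually. In whole tissue, fewer Kupffer cells and less marker RNA per cell cannot be told apart.

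Each library had 12442 to 13636 genes at 1 TPM or more, and the read depth behind these values is unknown, since no counts were used. Myc itself did not follow the labels, at 25.6 to 356 TPM in the Myc-labelled libraries and 89.2 to 554 TPM in the controls, so the first group is called Myc-labelled and every direction rests on the labels. Xist, the RNA of the inactive X chromosome of female cells, stood at 43.3 and 33.6 TPM in Myc-labelled replicates 1 and 2 and at 0.0574 and 0.0454 TPM in Myc-labelled replicates 3 and 4, against 32.8, 41.0 and 35.2 TPM in control replicates 1, 2 and 4 and 0.0543 TPM in control replicate 3. The groups therefore hold unequal numbers of libraries with Xist, 2 of 4 Myc-labelled and 3 of 4 control, and this split is given beside the results below. The labels number the replicates without saying that each is a separate animal, so p-values measure the spread between these libraries, with n = 4 per group throughout. Means are given ± SD, and log2 differences (Myc-labelled minus control) ± SE on the log2(TPM + 1) scale.

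All 10 markers were present in every library, the lowest single value being 4.89 TPM, so these Kupffer cell markers were detected throughout. Their levels fell into 3 tiers. Marco, Cd5l, C1qb, C1qc and C1qa had means over the 8 libraries of 218, 192, 179, 145 and 142 TPM, Clec4f and Vsig4 of 86.0 and 79.8 TPM, and Cd163, Adgre1 and Timd4 of 21.4, 15.8 and 11.5 TPM. C1qa was above Clec4f in 8 of 8 libraries and Vsig4 above Cd163 in 8 of 8, by 1.29 to 2.72 times and 2.41 to 7.36 times within a library. Marco came closer to the second tier, at 86.1 TPM against 82.7 TPM for Clec4f in control replicate 3. Within a tier the order was not stable: Marco was above Cd5l in 2 of 8 libraries, Clec4f above Vsig4 in 5 of 8 and Adgre1 above Timd4 in 7 of 8.

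None of the 10 genes overlaps another listed gene. C1qb (ENSMUSG00000036905.8), C1qc (ENSMUSG00000036896.5) and C1qa (ENSMUSG00000036887.5) lie side by side on the minus strand of chromosome 4 (136880129 to 136898803, mm10), separated by 3616 and 2851 bases. The other members are scattered: Clec4f (ENSMUSG00000014542.3, 83644542 to 83656187, minus strand) and Cd163 (ENSMUSG00000008845.9, 124304656 to 124330527, plus strand) on chromosome 6, Timd4 on chromosome 11 (ENSMUSG00000055546.6, 46810800 to 46844332), Vsig4 on chromosome X (ENSMUSG00000044206.3, 96247203 to 96293438), Cd5l on chromosome 3 (ENSMUSG00000015854.7, 87357881 to 87371073), Marco on chromosome 1 (ENSMUSG00000026390.7, 120474538 to 120505024) and Adgre1 on chromosome 17 (ENSMUSG00000004730.15, 57358691 to 57483527). Promoter windows from RefSeq (GRCm38.p6), 250 bases before to 50 bases after the start, were matched for 8 of the 10 genes. GGAAGT, the core bound by ETS factors such as the macrophage regulator PU.1, was searched on both strands and occurred in the windows of 5 of these 8 genes, against 23.8% of all 32851 windows. TGCTGAC, an element bound by MAF factors, occurred in 1 of 8 against 4.67%, the E-box CACGTG in 0 of 8 against 7.15% and the DR4 element, AGGTCA repeated after NNNN, in 0 of 8 against 0.0152%. Of the 5 windows with GGAAGT, the 4 below are shown because they belong to genes that follow the shared pattern described further on from closely (C1qb, Timd4) to loosely (Clec4f). The fifth, that of C1qc, is not shown, although C1qc followed that pattern closely as well. Capitals mark GGAAGT or its reverse complement and, in Timd4, also the reverse complement of TGCTGAC. No matches overlap each other. A match is a run of letters, not a binding site.
Clec4f promoter, chr6:83656067-83656366, minus strand: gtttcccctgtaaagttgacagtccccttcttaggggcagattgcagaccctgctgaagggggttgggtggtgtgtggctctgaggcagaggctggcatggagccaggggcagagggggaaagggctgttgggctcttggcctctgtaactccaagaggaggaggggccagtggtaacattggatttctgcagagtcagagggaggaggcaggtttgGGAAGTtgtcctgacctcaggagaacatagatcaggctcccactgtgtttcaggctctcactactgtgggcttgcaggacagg
Timd4 promoter, chr11:46810549-46810848, plus strand: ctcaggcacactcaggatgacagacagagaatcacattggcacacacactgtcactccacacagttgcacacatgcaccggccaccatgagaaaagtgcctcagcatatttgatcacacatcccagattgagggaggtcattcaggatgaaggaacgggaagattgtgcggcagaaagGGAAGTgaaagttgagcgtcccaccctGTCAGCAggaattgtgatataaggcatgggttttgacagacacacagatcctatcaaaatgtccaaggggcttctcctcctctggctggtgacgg
Vsig4 promoter, chrX:96293389-96293688, minus strand: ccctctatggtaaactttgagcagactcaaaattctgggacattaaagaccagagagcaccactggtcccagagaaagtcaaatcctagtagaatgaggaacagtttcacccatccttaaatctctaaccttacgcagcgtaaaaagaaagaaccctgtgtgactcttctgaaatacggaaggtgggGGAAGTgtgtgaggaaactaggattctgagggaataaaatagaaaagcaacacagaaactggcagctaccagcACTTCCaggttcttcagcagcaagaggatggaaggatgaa
C1qb promoter, chr4:136886151-136886450, minus strand: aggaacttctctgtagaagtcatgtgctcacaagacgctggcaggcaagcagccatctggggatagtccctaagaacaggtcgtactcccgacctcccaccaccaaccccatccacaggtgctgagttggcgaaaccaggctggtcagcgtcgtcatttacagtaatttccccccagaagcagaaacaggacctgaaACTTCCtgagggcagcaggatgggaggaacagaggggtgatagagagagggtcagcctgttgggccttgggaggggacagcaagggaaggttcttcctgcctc

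C1qa, C1qb and C1qc encode the A, B and C chains of C1q, the recognition part that starts the classical complement pathway, and in liver mainly macrophages transcribe them. C1qa stood at 170, 129, 90.8 and 120 TPM in Myc-labelled replicates 1 to 4 and at 153, 161, 126 and 187 TPM in control replicates 1 to 4. C1qb stood at 203, 175, 92.4 and 148 TPM in the Myc-labelled libraries against 197, 222, 161 and 234 TPM in the controls. C1qc stood at 162, 136, 94.1 and 104 TPM in the Myc-labelled libraries against 155, 173, 143 and 192 TPM in the controls. All 3 chains were lowest in Myc-labelled replicate 3 and highest in control replicate 4, and the groups overlapped through Myc-labelled replicate 1, which lay among the controls, and for C1qa and C1qb also through replicate 2. C1qc came closest to separation, with 3 of 4 Myc-labelled values below every control. It averaged 124 ± 31.0 TPM in the Myc-labelled libraries and 166 ± 21.4 TPM in the controls, a log2 difference of -0.44 ± 0.21 with a 95% interval of -0.89 to 0.019 (limma, unadjusted p = 0.0585, adjusted p = 0.9998). C1qb had the same shift with a wider error (-0.44 ± 0.25), and C1qa a smaller one (-0.32 ± 0.22). Leaving out Myc-labelled replicate 3 gave -0.32 for C1qc, -0.21 for C1qb and -0.17 for C1qa.

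Clec4f, a galactose-binding lectin made in mouse almost exclusively by Kupffer cells, stood at 116, 101, 33.4 and 69.4 TPM in the Myc-labelled libraries against 89.8, 73.0, 82.7 and 123 TPM in the controls. Myc-labelled replicates 1 and 2 were thus above 3 of the 4 controls, and replicates 3 and 4 below all of them. The mean was 79.9 ± 36.6 TPM in the Myc-labelled libraries and 92.1 ± 21.6 TPM in the controls (log2 difference -0.32 ± 0.35), and the sign rested on 1 library, since the difference was 0.046 without Myc-labelled replicate 3. Timd4 encodes TIM-4, a phosphatidylserine receptor for dying cells that marks the long-lived resident cells. It stood at 10.5, 11.0, 5.09 and 5.60 TPM in the Myc-labelled libraries against 9.59, 19.1, 7.43 and 24.1 TPM in the controls. Control replicates 2 and 4 were above all Myc-labelled libraries, while control replicates 1 and 3 lay within their range. Its mean was 8.04 ± 3.12 TPM in the Myc-labelled libraries and 15.1 ± 7.89 TPM in the controls. The log2 difference of Timd4, -0.76 ± 0.37, was the lowest of the 10, and its 95% interval reached from -1.59 to 0.077 (adjusted p in limma, 0.9998). It was -0.49 without control replicate 4.

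The clearance receptors and the secreted factor came next. Vsig4, the complement receptor CRIg that captures particles coated with C3 fragments, stood at 95.03, 92.8, 44.8 and 44.9 TPM in the Myc-labelled libraries against 93.2, 126, 61.7 and 79.8 TPM in the controls. Its Myc-labelled values came as 2 pairs, one inside the control range and one below it. Cd163, the receptor for haemoglobin bound to haptoglobin, stood at 28.6, 20.8, 13.5 and 6.10 TPM in the Myc-labelled libraries against 20.02, 35.3, 25.7 and 21.3 TPM in the controls. Here Myc-labelled replicate 4, not 3, was the lowest of the 8 libraries. The log2 difference was -0.42 ± 0.31 for Vsig4 and -0.69 ± 0.40 for Cd163, and that of Cd163 was -0.30 without Myc-labelled replicate 4. Vsig4 had -0.24 when Myc-labelled replicate 3 or control replicate 2 was dropped, and -0.25 when Myc-labelled replicate 4 was.

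Cd5l, a secreted scavenger protein also called apoptosis inhibitor of macrophages, stood at 217, 192, 78.1 and 153 TPM in the Myc-labelled libraries against 146, 298, 137 and 312 TPM in the controls. Adgre1, which encodes the surface antigen F4/80 of mouse macrophages, stood at 17.3, 14.0, 4.89 and 11.9 TPM in the Myc-labelled libraries against 12.5, 23.7, 14.3 and 27.7 TPM in the controls. For both genes control replicates 2 and 4 were the highest libraries and Myc-labelled replicate 3 the lowest. The log2 difference was -0.47 ± 0.38 for Cd5l and -0.70 ± 0.37 for Adgre1, against -0.16 for Cd5l and -0.36 for Adgre1 without Myc-labelled replicate 3. Without control replicate 2 or 4 that of Cd5l was -0.30 and -0.27. Marco, a collagen-like scavenger receptor for bacteria and particles, was the most uneven member, at 201, 112, 197 and 135 TPM in the Myc-labelled libraries against 98.6, 618, 86.1 and 296 TPM in the controls. The control values enclosed all Myc-labelled values, with 2 controls below them and 2 above. The log2 difference of Marco was -0.35 ± 0.60, and it was 0.20 without control replicate 2.

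**Figure D1:**
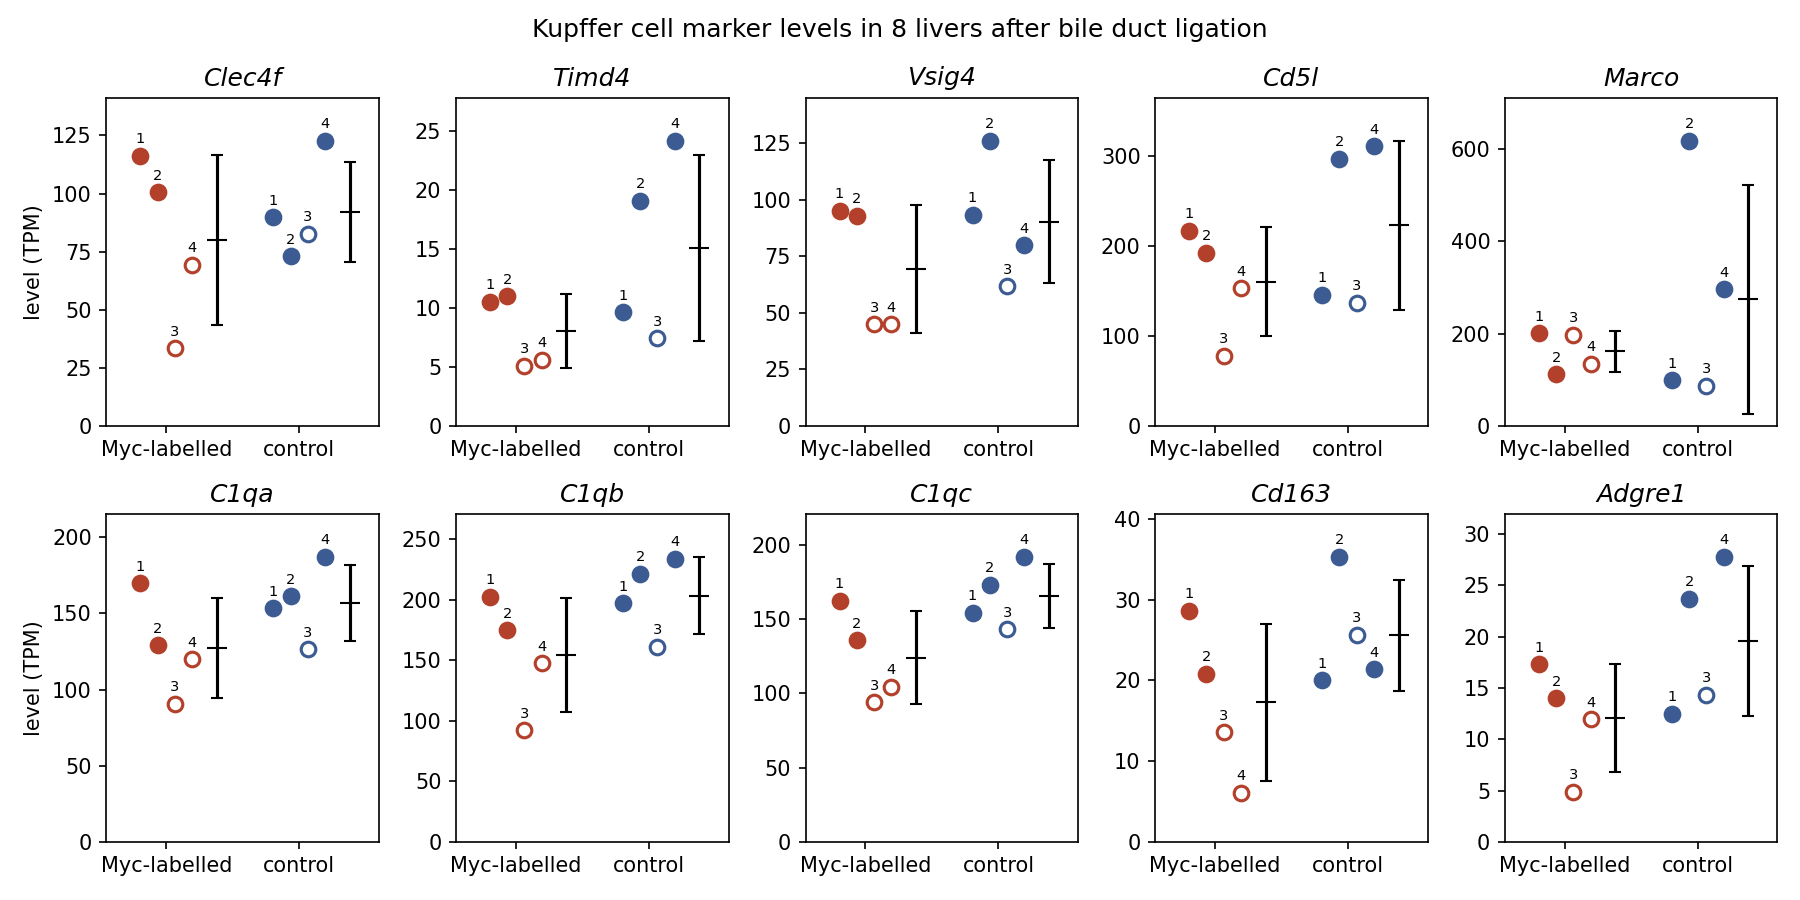
Level in TPM of each of the 10 Kupffer cell markers (vertical axes, from 0) in each library, Myc-labelled left and control right, with the replicate number above each point and the group mean ± SD beside it. Open points are the 3 libraries with Xist below 1 TPM. In 8 of 10 genes the lowest point is Myc-labelled replicate 3, and no gene separates the groups.

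Set side by side, 10 of 10 members had a log2 difference under 0, against 42% of all tested genes, and none was past the threshold. The members varied together across the libraries (median r of their 45 pairs 0.76, given below), so their signs are not separate observations. With limma 0 of 10 members were called at an adjusted p of 0.05, where 0% of all 13055 genes were called. At an unadjusted p under 0.05 there were 0 of 10 members, against 0.597% of genes lower and 1.26% higher. With array weights, which let limma down-weight variable libraries, 0 members were called as well, and 1 gene in all. The members' log2 differences were then -0.60 to -0.065, with Clec4f and Vsig4 both at -0.065. The values of the 2 groups did not separate in any member, against 0.322% of genes that separated with lower and 0.935% with higher Myc-labelled values. The median log2 difference of the members was -0.44, beside 0.037 over all genes tested. This median was -0.28 without Myc-labelled replicate 3 and -0.28 with Xist as a covariate. The 95% intervals were of unequal width, from -0.80 to 0.16 for C1qa and from -1.72 to 1.03 for Marco, and each includes 0. The share of TPM from mitochondrial genes was 10.02% to 11.2% in the Myc-labelled libraries and 7.73% to 9.60% in the controls, and its part in the marker levels was not tested.

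**Figure D2:**
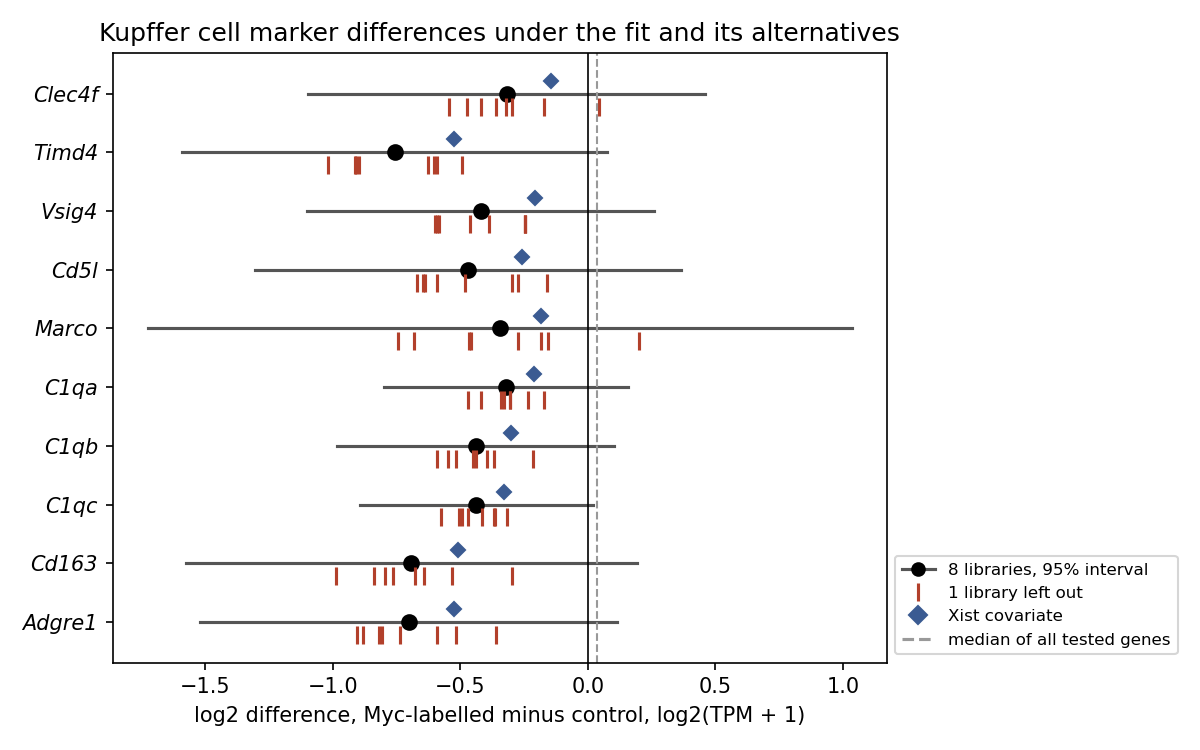
Log2 difference (Myc-labelled minus control, horizontal axis) for each member: black points with 95% intervals from the 8 libraries, red ticks for each library left out in turn, blue diamonds with Xist as a covariate, and a dashed line at the median of all tested genes. All 10 intervals cross 0. Only Clec4f without Myc-labelled replicate 3 and Marco without control replicate 2 have a tick above 0.

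Marker levels were next set out by Xist, at a limit of 1 TPM. Timd4 ranged from 9.59 to 24.1 TPM in the 5 libraries with Xist and from 5.09 to 7.43 TPM in the 3 without. Vsig4, itself an X-linked gene, ranged from 79.8 to 126 TPM with Xist and from 44.8 to 61.7 TPM without. C1qa and C1qb also kept apart, at 129 to 187 TPM with Xist against 90.8 to 126 TPM without for C1qa, and 175 to 234 TPM with Xist against 92.4 to 161 TPM without for C1qb. The other 6 members overlapped between the 5 and the 3 libraries. Thus 4 of 10 members had all 5 values with Xist above all 3 without, as did 4.14% of all genes tested, and 0 of 10 had all 5 below all 3, as did 0.552% of genes. The split was seen in the data and not given by the labels, so no test was made of it.

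Within each kind of library the differences between the labelled groups rested on few libraries. Among the libraries with Xist (2 Myc-labelled and 3 control) 9 of 10 members were lower in the Myc-labelled ones, with a median log2 difference of -0.21 beside 0.14 over all genes, and Clec4f was the exception at 0.21. Among those without Xist (2 Myc-labelled and 1 control) 9 of 10 were lower, with a median of -0.46 beside -0.068 over all genes, and Marco was the exception at 0.91. The members varied together across the libraries, so these counts are not of separate observations. Cd163 measured -0.017 with Xist and -1.39 without, and C1qc -0.21 with Xist and -0.53 without. The part of Xist status in the differences was not tested beyond the covariate.

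Across the 8 libraries most markers varied together. Of the 45 pairs of members 44 had a positive Pearson r of log2(TPM + 1), as did 65.9% of all pairs of tested genes, and the median was 0.76, beside 0.189 over all those pairs. By exact permutation over all 40320 pairings, two-sided and with Benjamini-Hochberg adjustment over the 45 pairs, 22 pairs were under 0.05 by Pearson's r and 16 by Spearman's rho. These 22 pairs were those with r of at least 0.80, a level reached by 3.03% of all pairs of tested genes. The 2 libraries farthest from the median of a pair's first gene, in the order listed at the start, were next left out. Of the 22 pairs 16 then kept an r of at least 0.5, and the lowest was -0.0056, for Clec4f and Adgre1. Every value without the 2 farthest libraries follows this rule. The C1q chains were among the tightest. C1qa and C1qb had r = 0.97 (exact permutation p = 0.000124, adjusted 0.00223; rho = 0.98, exact p = 0.000397, adjusted 0.00893), and r was 0.94 without the 2 libraries farthest from the median. C1qb and C1qc had r = 0.94 (exact p = 7.44e-05, adjusted 0.00223; rho = 0.98, exact p = 0.000397, adjusted 0.00893), and 0.92 without the 2 farthest. C1qa and C1qc had r = 0.95. Genes on other chromosomes were as tight by r: Cd5l and Adgre1 had r = 0.97 (exact p = 0.000595, adjusted 0.00536; rho = 0.83, exact p = 0.0154, adjusted 0.0432), and 0.91 without the 2 farthest.

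Clec4f followed the others mainly through 1 library. Its r with C1qb was 0.88 (exact p = 0.0134, adjusted 0.0293; rho = 0.74, exact p = 0.0458, adjusted 0.0897), but 0.54 without Myc-labelled replicate 3 and 0.31 without the 2 farthest libraries. Timd4 and C1qb, at r = 0.84 over the 8 libraries (exact p = 0.00464, adjusted 0.0161; rho = 0.93, exact p = 0.00223, adjusted 0.0201), had 0.92 without Myc-labelled replicate 3 and 0.85 without the 2 farthest. Cd163 had its highest r with Vsig4 (r = 0.81, exact p = 0.00913, adjusted 0.0228; rho = 0.74, exact p = 0.0458, adjusted 0.0897), which was 0.46 without the 2 farthest libraries. Marco had r from -0.052 to 0.63 in its 9 pairs, of which 0 were under 0.05 after adjustment. These values rested in part on Myc-labelled replicate 3, where Marco stood at 197 TPM and 8 of the other 9 members had their lowest value. Without it r was 0.90 with Cd5l, 0.84 with Adgre1 and 0.76 with Timd4, but 0.39 with Cd163 and 0.016 with Clec4f. Without control replicates 2 and 3, the farthest from the median of Marco, r was 0.075 with C1qb and 0.30 with Adgre1. Against the mean profile of the other 9 members, r of Marco was 0.42 over the 8 libraries and 0.71 without Myc-labelled replicate 3. Subtracting each labelled group's mean left a median r of 0.74. Subtracting the means of the libraries with and without Xist left 0.53, so a part of the shared variation lay between those libraries. The points share their library, so depth, RNA quality and tissue make-up are common to all genes of a point.

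**Figure D3:**
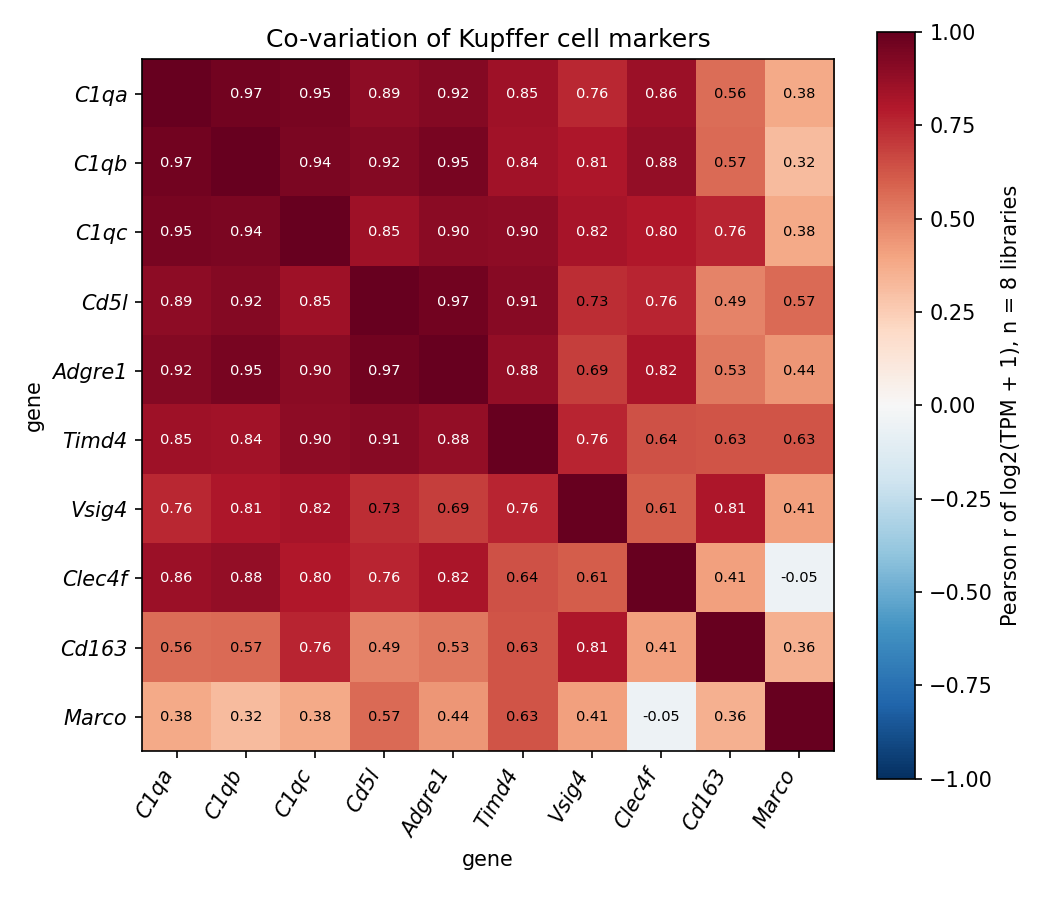
Pearson r of log2(TPM + 1) over the 8 libraries for each pair of members, on a colour scale from -1 to 1 with the value printed in each cell. The C1q chains, Cd5l, Adgre1 and Timd4 form a block with r from 0.84 to 0.97, and Marco has its highest r, 0.63, with Timd4.

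Ratios between members within a library describe this closeness without a model. The ratio of C1qa to C1qb was 0.84, 0.74, 0.98 and 0.81 in the Myc-labelled libraries and 0.78, 0.73, 0.78 and 0.80 in the controls, so its highest value was 1.35 times its lowest. The ratio of Clec4f to C1qb had a span of 1.75 times and Cd5l to C1qb of 1.81 times. Timd4 to Clec4f, which sets the marker of long-lived cells against a general Kupffer cell marker, was 0.090, 0.109, 0.152 and 0.081 in the Myc-labelled libraries and 0.107, 0.261, 0.090 and 0.197 in the controls. It was highest in control replicates 2 and 4, and Myc-labelled replicate 3, with the lowest levels of both genes, came next. Marco to C1qb had the widest span, 5.58 times, with 2.79 in control replicate 2 and 2.14 in Myc-labelled replicate 3 as its 2 highest values. Cd163 to C1qb was 0.041 in Myc-labelled replicate 4 and 0.091 to 0.159 in the 7 other libraries.

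**Figure D4:**
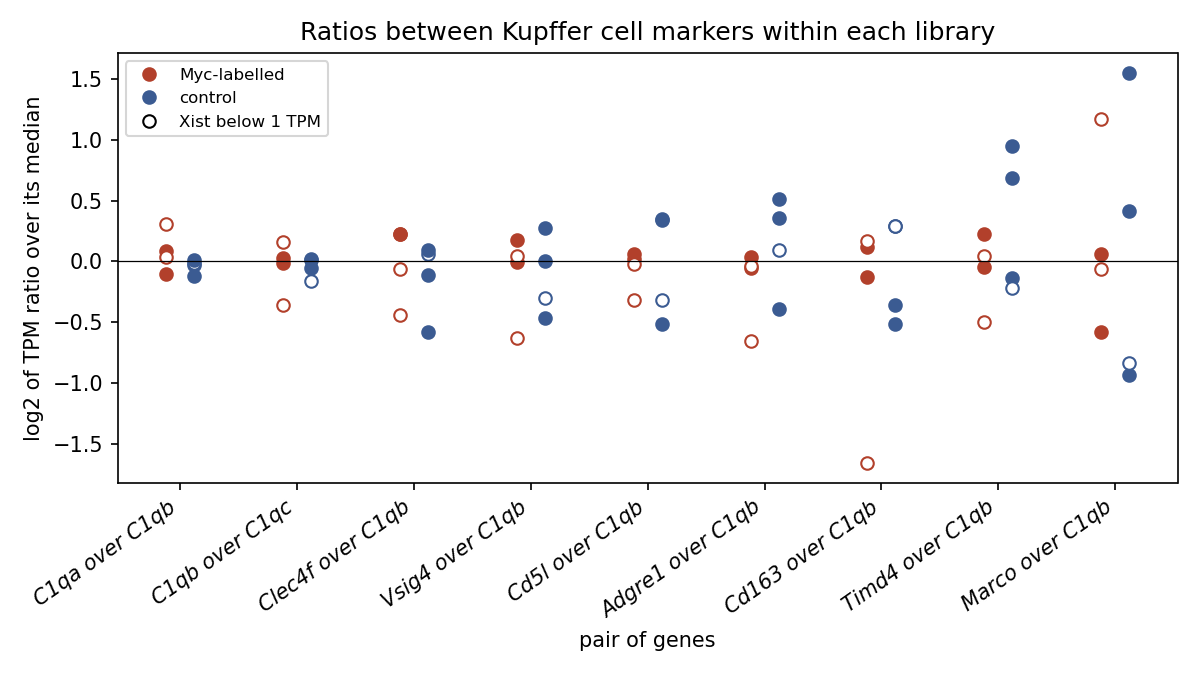
Ratio of TPM between 2 markers within each library, as log2 over the median of the 8 libraries (vertical axis), for 9 pairs of genes. Red points are Myc-labelled, blue points control, and open points libraries with Xist below 1 TPM. C1qa over C1qb spans 1.35 times from lowest to highest, and Marco over C1qb 5.58 times.

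Other macrophage genes were compared in the same fit, and 0 of them passed the threshold. Of 12 further genes linked to Kupffer cells 11 were tested, with 10 lower, 1 higher and a median log2 difference of -0.21. Cd207, the lectin langerin, stood at 2.85 ± 1.77 TPM in the Myc-labelled libraries and 4.73 ± 2.77 TPM in the controls, Il18bp, a decoy receptor for interleukin 18, at 35.4 ± 6.21 against 43.8 ± 9.02 TPM, and the iron exporter Slc40a1 at 113 ± 33.6 against 116 ± 29.9 TPM. Of 11 regulators of macrophage identity 8 were lower and 3 higher (median -0.054). Spic, a factor of macrophages that handle red cells, stood at 4.41 ± 1.93 TPM in the Myc-labelled libraries and 8.79 ± 6.88 TPM in the controls. Nr1h3, which encodes the oxysterol receptor LXR alpha needed by Kupffer cells, stood at 56.0 ± 12.3 against 73.4 ± 19.6 TPM, and Id3 at 125 ± 61.2 against 122 ± 54.8 TPM.

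Genes shared by macrophages of any origin were mostly lower in the Myc-labelled libraries, as were 42% of all tested genes. Of 15 pan-macrophage genes 11 were lower and 4 higher (median -0.13), with the growth factor receptor Csf1r at 39.4 ± 11.6 TPM in the Myc-labelled libraries and 50.6 ± 12.2 TPM in the controls and lysozyme, Lyz2, at 223 ± 112 against 187 ± 32.8 TPM. Of 13 genes of monocyte-derived macrophages 8 were higher and 5 lower (median 0.33), where 42% of all tested genes were lower. The most abundant, the fibronectin gene Fn1, stood at 564 ± 264 TPM in the Myc-labelled libraries and 585 ± 164 TPM in the controls, S100a4 at 10.2 ± 6.38 TPM in the Myc-labelled libraries and 3.39 ± 2.68 TPM in the controls, and the elastase Mmp12 at 5.47 ± 4.84 against 1.51 ± 1.19 TPM. Fn1 was highest in Myc-labelled replicate 3, at 958 TPM, where the monocyte-derived list as a whole was lowest. Which cells of the liver gave the Fn1 RNA was not tested. The 3 lists stood on the same side of 0 in 5 of the 8 libraries and parted most in Myc-labelled replicate 4 and control replicate 2. In Myc-labelled replicate 4 the mean of log2(TPM + 1), centred on each gene's mean over the libraries, was -0.49 for the 10 markers but 0.34 for the pan-macrophage and 0.69 for the monocyte-derived genes. In Myc-labelled replicate 3 the same lists were at -0.78, -0.92 and -0.62. In control replicate 2 they were at 0.64, 0.21 and -0.35.

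**Figure D5:**
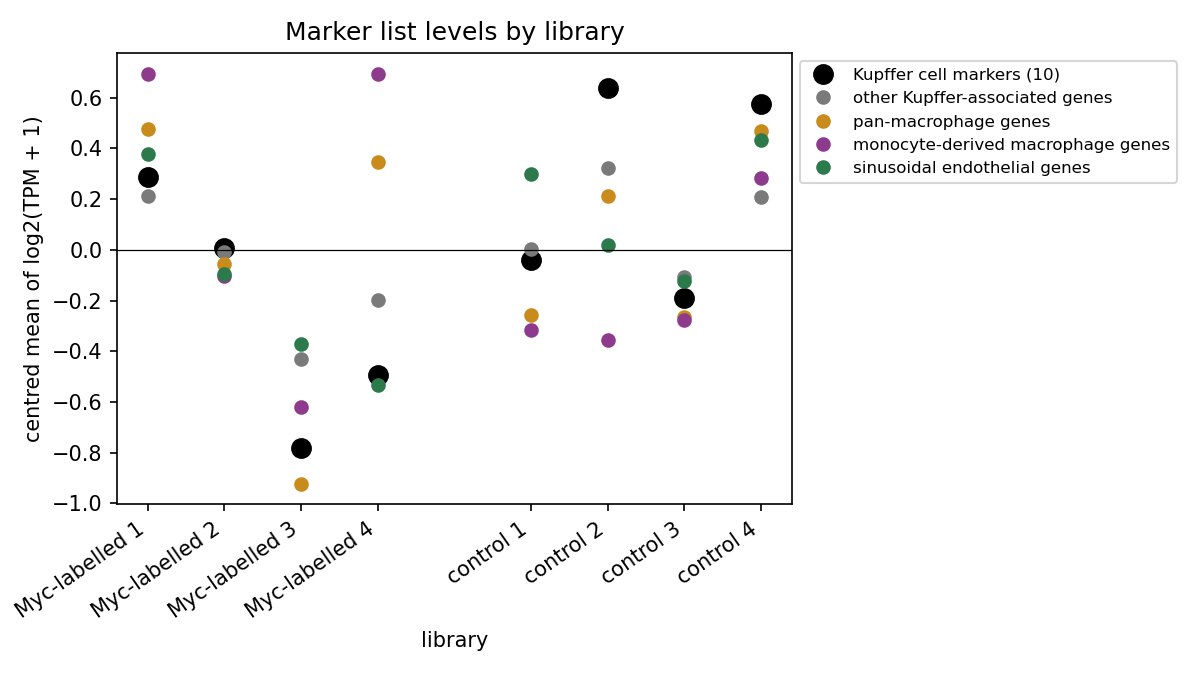
Mean of log2(TPM + 1), each gene centred on its mean over the 8 libraries (vertical axis), for 5 gene lists in each library, Myc-labelled left and control right. The 10 markers range from -0.78 to 0.29 in the Myc-labelled libraries and from -0.19 to 0.64 in the controls, and Myc-labelled replicate 4 shows the widest gap between them and the monocyte-derived genes.

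Genes that could feed or share the Kupffer cell programme were equally without calls. Of 8 niche signals 7 were tested, 4 higher and 3 lower (median 0.036). Gdf2, which encodes BMP9, stood at 9.02 ± 4.15 TPM in the Myc-labelled libraries and 12.6 ± 4.35 TPM in the controls, and the macrophage growth factor Csf1 at 13.0 ± 2.84 against 15.2 ± 6.59 TPM. Il34, another ligand of the Csf1 receptor, stood at 4.75 ± 3.57 TPM in the Myc-labelled libraries and 3.02 ± 1.25 TPM in the controls. Of 10 genes of haem and iron handling 5 were higher and 5 lower (median 0.042), with the biliverdin reductase Blvrb at 157 ± 30.5 against 122 ± 18.3 TPM and haptoglobin, Hp, at 19988 ± 3512 against 20620 ± 4102 TPM. Of 10 complement partners and receptors 8 were lower and 2 higher (median -0.18), with C3 at 6543 ± 1305 TPM in the Myc-labelled libraries against 7786 ± 2465 TPM in the controls and C1rb at 22.7 ± 1.93 against 28.8 ± 8.16 TPM.

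Markers of other cell types also leaned to one side in several lists, with 0 genes called. Summed TPM of 13 sinusoidal endothelial markers was 145 to 271 in the Myc-labelled libraries and 205 to 287 in the controls, with 12 of 13 lower (median log2 difference -0.30) and none at 0. Of 10 hepatocyte markers 7 were lower (median -0.13; summed 64449 to 99989 against 64251 to 121033 TPM). Stellate and myofibroblast markers were higher in 8 of 10 (median 0.45; 242 to 653 against 180 to 367 TPM), cholangiocyte markers in 6 of 6 tested of 8 (median 0.26; 118 to 971 against 98.8 to 322 TPM) and neutrophil markers in 8 of 8 tested of 9 (median 0.67; 27.9 to 163 against 15.3 to 71.5 TPM), with the neutrophil marker Ly6g at 0 in some library. The cholangiocyte sum was mostly Spp1, at 939 of 971 TPM in Myc-labelled replicate 4, while Krt19 stood at 9.77 ± 4.58 against 8.21 ± 3.26 TPM. Red cell genes were higher in 5 of 5 tested of 7 (median 0.63; 735 to 1594 against 354 to 1773 TPM), with Slc4a1 at 0 in some library. The 10 T and B cell genes summed to 1.55 to 5.75 TPM in the Myc-labelled libraries and 1.23 to 4.72 TPM in the controls, all under the filter. The part of tissue make-up in the marker levels was not tested.

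Among 10540 other genes that averaged 2 TPM or more and had an established symbol, 37 (0.351%) had a Pearson r of at least 0.9 with the mean standardised profile of the 10 markers over the 8 libraries, where the median gene had 0.27. This ranking is a description, since the top of a long list is high by selection. The 10 highest were Oplah (0.98), Eif4b (0.98), Cfp (0.96), Colgalt1 (0.96), Lilra5 (0.96), Cys1 (0.95), Eif2ak1 (0.95), Il18bp (0.95), Adamts2 (0.95) and Ptgs1 (0.94), and all 10 kept at least 0.9 without Myc-labelled replicate 3. The libraries left were among those used to choose these genes, so this is no separate check. Cfp encodes properdin, the stabiliser of the alternative complement convertase. It stood at 84.3, 63.0, 41.3 and 50.1 TPM in the Myc-labelled libraries against 66.9, 127, 60.4 and 97.4 TPM in the controls, lowest in Myc-labelled replicate 3 and highest in control replicates 2 and 4. Ptgs1 encodes cyclooxygenase 1 and with Il18bp was on the list of further Kupffer cell genes. The 10 ranked genes of that list had a median r of 0.76, and 9 were above 0. C6, from the same list, was near the bottom of the ranking at -0.75. Without Myc-labelled replicate 3, r was 0.43 for both Folr2 and Cd38. With each labelled group's mean subtracted, the 10 genes with the highest r had values from 0.93 (Il18bp) to 0.97 (Eif4b). Of them 3 stayed among the 10 highest, namely Oplah, Eif4b and Ptgs1. The lowest r values belonged to A2ml1 (-0.95), Bloc1s6 (-0.91), Faap20 (-0.90), Fam25c (-0.90) and Cyp4a12a (-0.87). Cyp4a12a, a cytochrome P450 known for male-predominant expression in mouse liver, stood at 0.654, 0.149, 19.8 and 13.9 TPM in the Myc-labelled libraries against 1.91, 0.579, 11.7 and 0.448 TPM in the controls, high in the 3 libraries without Xist.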

How the data were processed

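Liver RNA in 8 libraries was analysed. The submitters' processing notes name HISAT2 (an aligner), StringTie (a quantifier) and the build mm10, with versions not given. TPM, FPKM and per-base coverage (a signal not scaled for depth) were deposited by the authors, per the file headers, and no read counts were used, so counting error is not known. Repeated rows of a gene ID (10 to 15 per library) were summed. TPM was tested as log2(TPM + 1) with limma 3.58.1 in R 4.3.3 (trended and robust, two-sided, Benjamini-Hochberg at 0.05) over the 13055 genes averaging 1 TPM or more. FPKM replaced TPM in 1 alternative. Correlations used Python 3.11.15, numpy 2.4.6 and scipy 1.17.1. The pipeline was tested on simulated data with known changes. The members, gene lists and tests were chosen with earlier results of these data known. All 10 members are named, and from each other list at most the 2 highest genes and the 2 with the smallest p; the genes most like the markers are the 10 highest and 5 lowest by Pearson r. The Xist covariate and split were chosen after seeing the data. The proteins of the C1q chains were not compared here.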

Additional observations from a re-analysis of the deposited data

How the results depend on the processing

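No member was past the threshold under 18 other settings (pseudocounts of 0.1 and 5, no filter and a filter at 5 TPM, median-of-ratios scaling, quantile normalization, FPKM, no trend or robust step, array weights, blocking on replicate number, and dropping each of the 8 libraries) or with the Xist covariate. Over all genes 0 were called, except 1 with array weights, and the cause was not tested. The members' median log2 difference was -0.63 to -0.28 when 1 library was left out and -0.48 to -0.31 under the other 10 settings. Dropping 1 library gave -0.54 to 0.046 for Clec4f, positive without Myc-labelled replicate 3, and -0.74 to 0.20 for Marco, positive without control replicate 2. The median r of the 45 pairs was 0.71 to 0.81 with 1 library left out. It was 0.74 with the labelled groups' means subtracted and 0.53 with the Xist means subtracted. The last step removes variation between the libraries with and without Xist. With the replicate block the median log2 difference was -0.44 and 0 genes were called. The correlation of deviations of same-numbered libraries was 0.13, -0.058, 0.065 and 0.070 for numbers 1 to 4, and not every library correlated best with its own number, so the numbers were not taken as pairs. With 4 libraries per group and unknown counting error, differences inside each gene's own interval are not resolved.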
